A study of Mus musculus with 8 samples.

Results

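Of 18603 windows of 6 kb centred on gene starts, 295 carried more H3K27me3 in naive CD4 T cells lacking Ezh1 than in WT cells while the cells lacking both Ezh1 and Ezh2 stayed within about 1.5-fold of WT. These member windows were chosen by their measured values. The log2 ratio of Ezh1 KO to WT had to be at least 0.585 and that of the double KO to WT had to lie between -0.585 and 0.585, both with a pseudocount of 1 and with a value of at least 1 in the higher of the Ezh1 KO and WT. All values of these 2 ratios are therefore a description. Of the 17972 windows at 1 or more in WT or the Ezh1 KO, 1.93% passed the Ezh1 KO threshold (347 windows). The double KO was above the band in 52 of these, below it in 0 and inside it in the 295 members, which are 1.64% of the windows tested.

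The mice were 129SV/B6, and naive CD4 T cells were taken from their lymph nodes. The 4 genotypes were WT, Ezh1-/- (Ezh1 KO, a germline deletion carried by every cell), Ezh2 fl/fl CD4-cre (called Ezh2 KO) and Ezh1-/- with Ezh2 fl/fl CD4-cre (double KO). CD4-cre, in which Cd4 regulatory sequence drives the recombinase, deletes floxed Ezh2 from the thymocyte stage on, so the cells develop from precursors that had Ezh2. Each genotype has 1 ChIP-seq and 1 RNA-seq library, 8 in all, so no difference has an SD or a test, and genotype, animal and library preparation cannot be told apart. The labels give neither the number nor the age of the mice.

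H3K27me3 is the trimethyl mark that Polycomb repressive complex PRC2 places on histone H3 at silent genes, above all at CpG-rich promoters of developmental regulators. Ezh1 and Ezh2 are alternative catalytic subunits of PRC2. Ezh2 is the more active methyltransferase and the main one in dividing cells, and Ezh1 is relatively more prominent in resting cells, such as naive lymphocytes.

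Because base composition differed between the members and other windows, upstream sequences are given first. The 200 bases before the annotated start (mm9, 5′ to 3′ on the gene's strand, CpG in capitals) are shown for 5 members that the results below return to. They are the member with the largest Ezh1 KO ratio, Col11a2 (chr17:34176182-34176381, plus strand), the member with the highest WT level, Prdm12 (chr2:31495357-31495556, plus strand), the Wnt ligand genes Wnt4 (chr4:136833204-136833403, plus strand) and Wnt9a (chr11:59120230-59120429, plus strand), and Sars2 (chr7:29526810-29527009, plus strand), the member with the largest Ezh2 KO ratio.
Col11a2: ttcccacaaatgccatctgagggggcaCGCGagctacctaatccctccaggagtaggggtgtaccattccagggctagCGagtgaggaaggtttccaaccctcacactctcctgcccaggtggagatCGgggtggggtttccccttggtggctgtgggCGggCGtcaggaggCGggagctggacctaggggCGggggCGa
Prdm12: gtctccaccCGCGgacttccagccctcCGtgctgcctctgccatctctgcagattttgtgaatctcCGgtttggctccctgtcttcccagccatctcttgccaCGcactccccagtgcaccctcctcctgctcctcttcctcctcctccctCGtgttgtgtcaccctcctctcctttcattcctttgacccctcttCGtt
Wnt4: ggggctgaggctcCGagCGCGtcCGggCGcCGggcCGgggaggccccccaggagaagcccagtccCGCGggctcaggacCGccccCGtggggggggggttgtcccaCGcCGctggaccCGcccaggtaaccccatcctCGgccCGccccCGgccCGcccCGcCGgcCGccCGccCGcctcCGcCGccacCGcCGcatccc
Wnt9a: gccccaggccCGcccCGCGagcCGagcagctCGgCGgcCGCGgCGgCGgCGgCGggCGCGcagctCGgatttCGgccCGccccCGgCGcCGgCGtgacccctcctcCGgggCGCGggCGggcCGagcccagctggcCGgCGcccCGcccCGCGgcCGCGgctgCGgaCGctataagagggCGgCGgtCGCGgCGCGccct
Sars2: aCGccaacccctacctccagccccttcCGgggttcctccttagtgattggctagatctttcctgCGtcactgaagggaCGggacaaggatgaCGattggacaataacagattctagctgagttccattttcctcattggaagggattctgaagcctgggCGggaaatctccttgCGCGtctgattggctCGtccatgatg
These stretches hold 9 CpG in Col11a2, 7 in Prdm12, 27 in Wnt4, 41 in Wnt9a and 9 in Sars2, beside a median of 10 over the 247 members whose window is centred on an annotated start of 9 over all 14352 such windows and of 12 over marked windows (those with high H3K27me3 in WT, defined below) that were no members. GGGCGG, the core of the GC box, was sought on both strands with TATAAA, and a match is a description only. GGGCGG occurred upstream of 52.2% of members, including Col11a2, Wnt4, Wnt9a and Sars2, of 52.8% of the other marked windows and of 43.8% of all windows. TATAAA occurred upstream of 4.86% of members and 8.05% of all windows, and in none of the 5 stretches.

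In the RNA files, Ezh1 was at 1.05 in WT, 0.196 with Ezh1 deleted, 1.12 with Ezh2 deleted and 0.194 with both deleted (mean over exons of the peak of coverage per M reads), lower in the 2 libraries labelled as lacking it. Ezh2 was at 0.925, 0.913, 1.08 and 1.17 in the same order. A mean over exons does not show the loss of a few floxed exons, so Ezh2 KO and double KO stand throughout for the libraries labelled so. Read depth was 78.2 to 88.2 M per ChIP library and 36.1 to 94.1 M per RNA library. The summed RNA of 7 T cell markers was 99.0 to 114 in the 4 libraries. Sums of 5 markers each were 1.61 to 5.19 for B cells, 1.46 to 5.22 for CD8 T and NK cells and 0.399 to 1.39 for myeloid cells, with the highest B cell and myeloid sums in the double KO. The part of these cells in the results was not tested.

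At the members the median H3K27me3 level (area of the window, coverage per M reads) was 31.4 in WT, 50.3 with Ezh1 deleted, 31.3 with Ezh2 deleted and 42.1 with both deleted. The double KO was above WT at 293 of the 295 members and below it at 2, Nr2f6 and Gpihbp1. The rule itself keeps the double KO from exceeding the Ezh1 KO. Passing the rule did not mean a double KO level equal to WT: the median log2 ratio of double KO to WT was 0.38 (quartiles 0.27 and 0.46), over 0.3 at 207 members and within 0.1 of 0 at 10. This ratio was used by the rule and is a description. With ratios centred on windows of like GC content and the overall median added back, an alternative described below, its median was 0.20. The upper quartile of the uncentred ratio was 0.20 over windows with signal and 0.23 over marked windows that were no members, both below 0.3. The counting interval of the uncentred ratio (95%, exact Clopper-Pearson on read equivalents, covering counting error only) lay above 0 at 242 members. Such intervals were made for members only, so this count has no share of other windows beside it. The median member showed 54.0% of the Ezh1 KO's rise in the double KO and 4.04% of it in the Ezh2 KO. Over all windows, 59.6% were above WT in the double KO at any size.

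**Figure D1:**
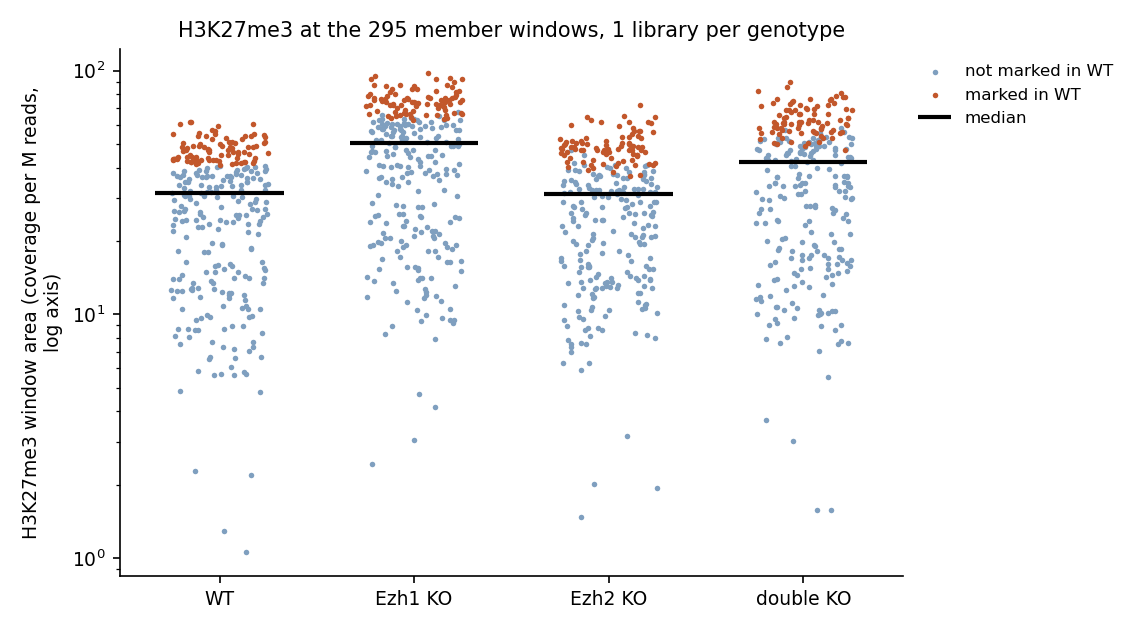
H3K27me3 area of the 295 member windows (log axis) in the 1 library of each genotype, with each point a window, the line the median, and colour showing whether the window was marked in WT. The medians are 31.4, 50.3, 31.3 and 42.1 from left to right, so the double KO sits between the other Ezh1-deleted library and WT.

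The Ezh1 KO ratios of the members were small, with a median of 0.63 and a range of 0.59 to 0.90 on the log2 scale, and 0 members reached 2-fold. The threshold fell in a continuous distribution. It had 152 members within 0.05 above it and 242 windows that were no members within 0.05 below it. The 5 members nearest to it were Psme1, Phldb1, Scube1, Grik4 and Wnt2b, all at 0.59. The nearest windows outside were Kcnk9, Gata2, Elfn1, Plk5 and Krt35, all at 0.58. At the upper edge of the double KO band, Uncx, Tmem132e, Dnahc17, Adamts3 and Tlx3 were inside at 0.58, and Cntfr, Foxa2, Rfx4, Smad7 and Cabp7 were outside at 0.59 to 0.60. With 95% counting intervals of the Ezh1 KO ratio that had a median width of 0.35, the windows on either side of both edges cannot be told apart. The counting interval of the Ezh1 KO over the double KO was above 0 at 233 members. The rule used both libraries and sets this direction, so the count is a description.

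**Figure D2:**
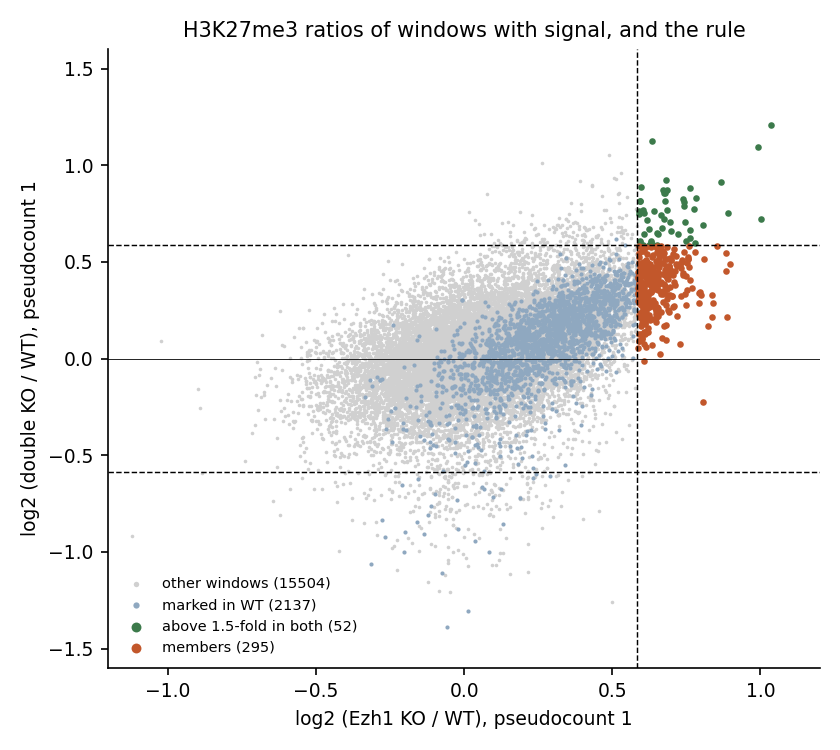
Log2 ratios to WT of H3K27me3 in the Ezh1 KO (x) and the double KO (y) for the windows with a value of at least 1 in any library, with dashed lines at the edges of the rule; 3 windows lie outside the axes. The 295 members (orange) continue the cloud of windows marked in WT (blue) and adjoin the 52 windows that passed in both (green), and nearly all lie above 0 on the y axis.

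Col11a2 encodes a chain of cartilage collagen XI, and its window (chr17:34173382-34179382) had the largest ratio. Its H3K27me3 level was 27.6 in WT, 52.3 with Ezh1 deleted, 29.0 with Ezh2 deleted and 39.1 with both deleted, a log2 ratio of 0.90 for the Ezh1 KO. The Ezh1 KO library was highest, the double KO intermediate, and WT and the Ezh2 KO lay close together. Sox10, which specifies neural crest and oligodendrocytes, was at 34.9, 65.3, 30.4 and 48.2 in the same order (chr15:78991916-78997916). The genes for myosin Myo15b, for Tmem132e and for Gp1bb, the beta chain of the platelet receptor glycoprotein Ib, followed this order of libraries too, apart from WT against the Ezh2 KO. Tmem132e was at 31.4, 57.7, 28.8 and 47.6, and Gp1bb at 43.5, 77.0, 47.3 and 62.5. In each of these 5 windows the double KO lay between WT and the Ezh1 KO.

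Other members near the top differed in the double KO. Sncg, the gene of gamma-synuclein, and Mmrn2, the gene of an endothelial matrix protein, start within 1 kb of each other, so their windows share most reads and are 1 measurement. The Sncg window was at 13.5 in WT, 25.8 with Ezh1 deleted, 14.7 with Ezh2 deleted and 15.8 with both deleted. The Mmrn2 window was at 13.7, 25.2, 15.6 and 16.1. At this locus the Ezh1 KO library stood apart from the other 3. Rin1, a Ras and Rab effector gene, was at 19.6, 35.9, 20.5 and 24.1. Nr2f6, a nuclear receptor gene, was at 12.01, 21.7, 12.8 and 10.1, the member with the lowest double KO ratio. Ifnz and ENSMUSG00000070917 overlap each other in a family of near-identical genes on chromosome 4, with levels of at most 4.71, and remain uncertain. In all, 12 members lay in 6 overlapping pairs, which leaves 289 separate loci.

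In the Ezh2 KO, whose library the rule did not use, the members were spread around WT. The median log2 ratio to WT was 0.04 and 176 of 295 members (59.7%) were above WT, beside 48.5% of all windows tested. Among windows marked in WT the share was 63.6% of members and 18.4% of the 2143 that were no members. Among unmarked windows, which most members were, it was 58.0% of members and 52.5% of others with signal. At 50 to 55% GC the median ratios were 0.05 in members and -0.02 in all windows with signal. At 55 to 60% GC they were 0.03 and 0.01. With background windows set equal the members' median turned to -0.09, with 86 members above WT. The ratio shares the WT library with the rule, so it is not independent of the choice of members. At least 1.5-fold, 2 members were higher (0.606% of all windows tested) and 0 were lower (0.795%). The higher pair was Sars2, the mitochondrial seryl-tRNA synthetase gene, and Ppard, the gene of a fatty acid-sensing nuclear receptor.

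The Sars2 window was at 6.07 in WT, 9.63 with Ezh1 deleted, 10.8 with Ezh2 deleted and 8.94 with both deleted. The Ppard window was at 6.67, 10.6, 11.6 and 10.1. In both, WT was the lowest library and the 3 mutants lay close together. Ctsd (cathepsin D), Lman1l and Pyroxd2 had the next largest Ezh2 KO ratios, 0.56, 0.54 and 0.50. The lowest were those of Irs4 (an insulin receptor substrate, -0.35), Zcchc14 (-0.33), Wnt5a (-0.30), Ptchd2 (-0.29) and Gpd1 (glycerol-3-phosphate dehydrogenase, -0.28). The Wnt5a window was at 29.8, 45.8, 24.0 and 39.3 in the same order, so the pair of libraries with Ezh1 deleted was above the pair with Ezh1 intact. The members' Ezh2 KO ratios were above those of all windows in each band of mean level. The mean level includes the WT, Ezh1 KO and double KO values that the rule used, so the bands are not independent of it. Among the 51 members with a mean level of 1 to 15 over the 4 libraries, the median log2 ratio of Ezh2 KO to WT was 0.25. All windows of that band had a median of 0.10. In the band from 30 to 50 the members' median was -0.04 and that of all windows -0.17. From 50 upward the 86 members had a median of 0.05, against -0.08 for all windows.

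Ezh1 deletion can also be read between the pair of libraries with Ezh2 deleted. The double KO was above the Ezh2 KO at 278 of the 295 members (94.2%), with a median log2 ratio of 0.34. That median was 0.082 with windows marked in WT set equal and 0.16 with centring on GC, the overall median added back. The same was seen at 58.1% of all windows tested and at 90.9% of marked windows that were no members, with medians of 0.05 and 0.23. At least 1.5-fold, 15 members were higher, beside 0.534% of all windows. The rule used the double KO library and held it near WT, so this ratio is a description as well. It was smaller than the Ezh1 KO ratio, whose median of 0.63 the threshold sets.

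**Figure D3:**
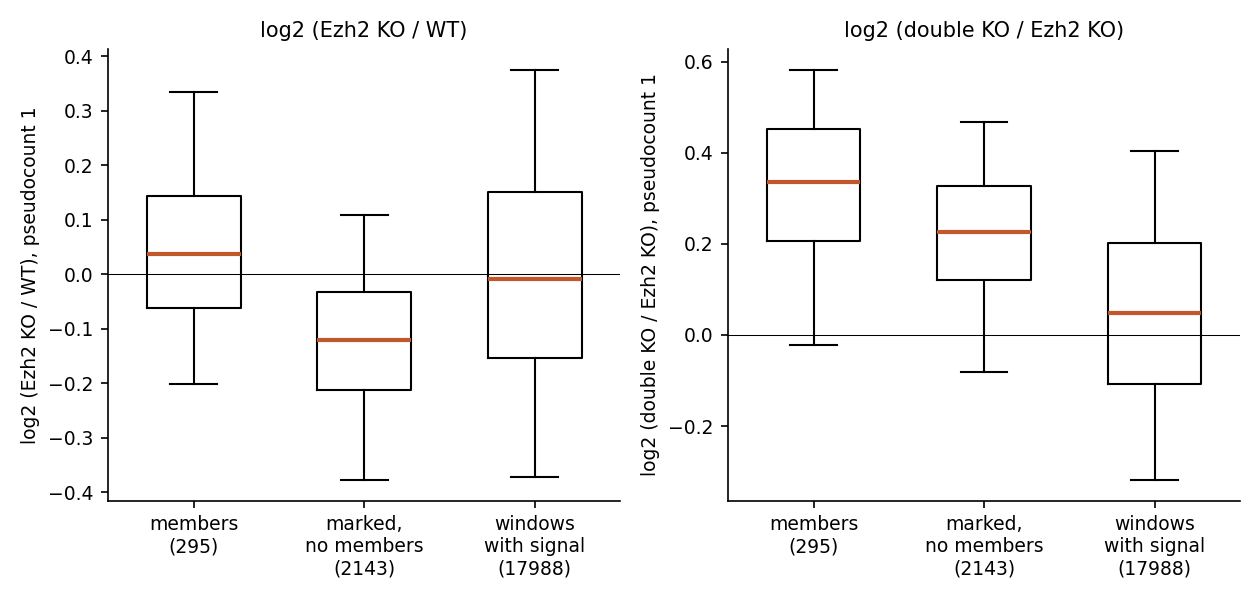
Log2 ratios of H3K27me3 for Ezh2 KO to WT (left) and double KO to Ezh2 KO (right) in the members, in windows marked in WT that are no members, and in all windows with signal; boxes are quartiles, the orange line the median, whiskers the 5th and 95th percentiles over windows, not over replicates. The members' medians are 0.04 on the left and 0.34 on the right, against -0.12 and 0.23 in the other marked windows.

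The members were more often marked in WT than windows at large, but most were not. A window counted as marked when its WT level reached 4-fold the median of 7077 background windows (those of genes with the most RNA in WT), which puts the limit at 40.6. Of the members 88 (29.8%) were marked, against 11.99% of all windows. The rule also uses the WT library, so this share is not independent of the choice of members. Judged by the highest bin of the window instead, 5.08% of members and 3.83% of all windows were marked. Put the other way, 3.94% of marked and 1.26% of unmarked windows were members. Among the highest WT levels were those of Prdm12 (a factor of pain-sensing neurons, 61.5), Ush1g (a hair cell scaffold protein, 60.5), Gdf6 (a BMP family ligand, 60.2) and Slc26a10 (an anion transporter family gene, 59.5). The highest WT level among other marked windows was 381. By mean level over the 4 libraries, which include the Ezh1 KO that the rule chose as high, the share of windows that were members was 0.533% at mean levels of 1 to 15, 1.28% at 15 to 30, 4.53% at 30 to 50 and 5.68% from 50 upward.

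Prdm12 was at 61.5 in WT, 97.5 with Ezh1 deleted, 64.5 with Ezh2 deleted and 89.9 with both deleted. In this window the libraries fell into a higher pair with Ezh1 deleted and a lower pair with Ezh1 intact. Slc26a10 instead had its Ezh2 KO and double KO levels together, at 59.5, 93.1, 72.5 and 73.0.

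The Ezh1 KO library was higher than WT over marked windows in general. Its median log2 ratio over the 2143 marked windows that were no members was 0.28, against -0.12 for the Ezh2 KO and 0.11 for the double KO. Base composition, which the rule did not use, differed between the members and other windows. The median GC content of the 6 kb window was 55.4% in members, 50.1% in marked windows that were no members and 47.4% in all windows with signal. CpG density had medians of 28.2, 24.8 and 19.7 per kb. The 88 marked members had medians of 56.4% GC and 35.2 CpG per kb. The 207 unmarked members had 54.9% and 23.8, beside 47.0% and 18.8 in unmarked windows with signal that were no members. A GC content of at least 50% was found in 282 members (95.6%), in 50.8% of the other marked windows and in 29.9% of windows with signal.

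Among marked windows, members were 1 of 852 at 45 to 50% GC (0.117%), 23 of 911 at 50 to 55% (2.52%), 61 of 261 at 55 to 60% (23.4%) and 3 of 4 from 60% upward, with 0 of 183 at 40 to 45% and 0 of 20 below 40%. The ratios of marked windows followed GC in all 3 mutants. From the band below 40% to that at 55 to 60%, the median log2 ratio to WT went from -0.12 to 0.50 in the Ezh1 KO, from -0.25 to 0.30 in the double KO and from -0.24 to -0.03 in the Ezh2 KO. Background windows, which lie at active genes and carry little of the mark, showed the same order in the Ezh1 KO, from -0.16 to 0.23 between these bands, and in the double KO, from -0.03 to 0.23. In the Ezh2 KO they went from 0.11 to 0.17. These comparisons share the WT library.

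**Figure D4:**
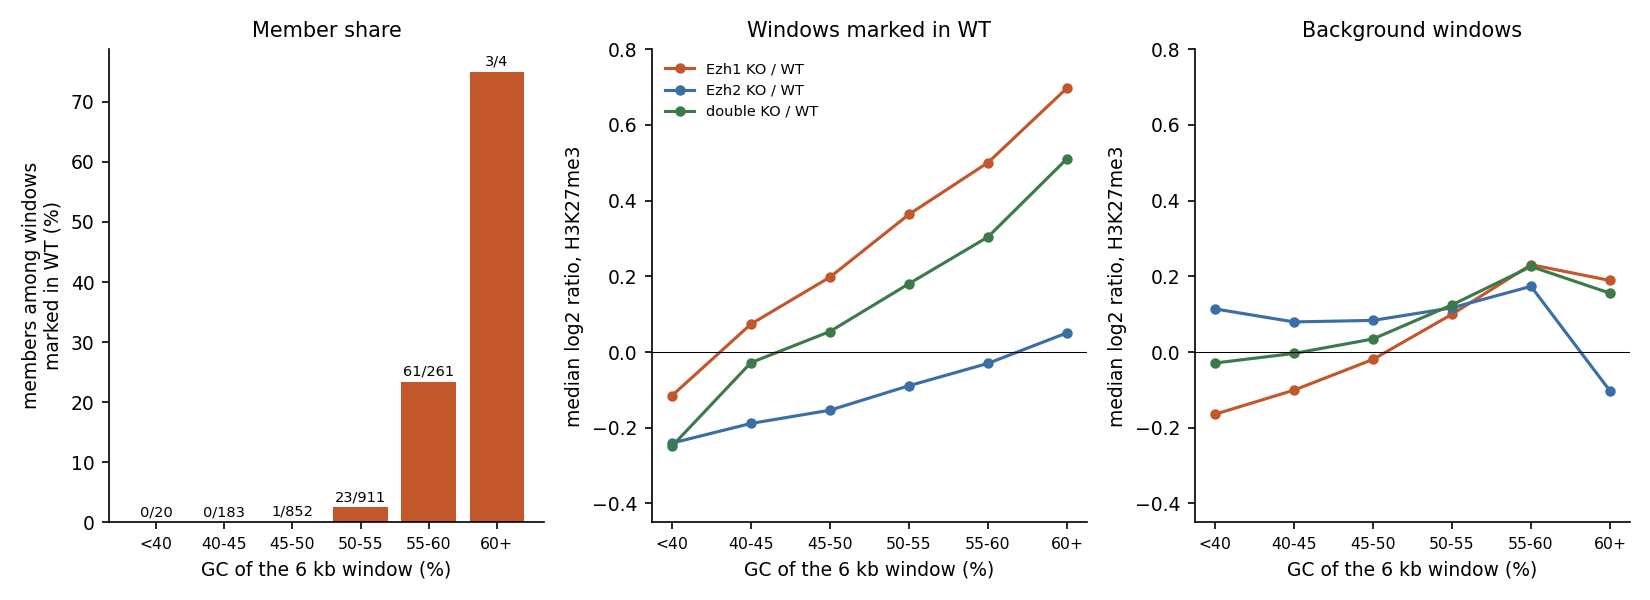
Windows by GC content of the 6 kb window: the share of windows marked in WT that are members (left, with counts above the bars), and the median log2 ratio of H3K27me3 to WT in marked windows (middle) and in background windows (right) for the 3 mutants. Members reach 23.4% of marked windows at 55 to 60% GC, and the Ezh1 KO ratio climbs from -0.12 to 0.50 over the marked bands up to there; the band from 60% upward holds only 4 marked and 11 background windows.

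An alternative chosen after the data were seen centred each log2 ratio on windows of the same GC content (rounded to 1%). The median of those windows was subtracted and the overall median added back, about 0.09 for the Ezh1 KO and 0.05 for the double KO. With this centring the rule found 18 windows, of which 7 were members. Centring within bands of mean level as well found 65 windows, 28 of them members. The members' median Ezh1 KO ratio was 0.34 after the first centring and 0.29 after the second, with the overall median added back. These medians are thus not excesses over windows of like GC. In the first centring 295 of 295 stayed above 0, which is not the median of windows of like GC. The rule chose the members on the uncentred ratio, so this sign shows no stability. Centring on GC thus took 288 of the members below the threshold or out of the band. Whether the relation to GC came from the mark or from the preparation of 1 library cannot be told apart here.

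By gene group, the shares of members are set beside 1.64% of all windows with signal. Of 19 gene lists, 9 held members, and 64 members were in at least 1 list. The Wnt, Hedgehog, BMP, FGF and Notch pathway genes had 17 members among 110 windows with signal (15.5%). Homeobox and Pax factors outside the Hox clusters had 13 of 109 (11.9%), neuronal ion channels and neurotransmitter receptors 12 of 115 (10.4%), and Sox, Fox, Tbx, Gata, bHLH and Sall factors 10 of 115 (8.70%). Collagen, laminin and matrix genes had 5 of 76 (6.58%), axon guidance and adhesion genes 4 of 102 (3.92%), and Hox genes 1 of 30 (3.33%). Those 30 of 39 Hox windows with signal included no Hoxc gene, and 1 member is too few to tell the Hox share from 1.64%. Among the marked windows of each list, the share was 17.3% for the pathway genes, 8.60% for the homeobox factors, 7.32% for the Sox, Fox and related factors and 6.52% for the neuronal genes. It was 3.85% for the Hox genes, 3.70% for the matrix genes and 3.57% for the axon guidance genes, near the 3.94% of all marked windows. The median Ezh1 KO ratio over the whole list was 0.40 for the pathway genes, 0.41 for the homeobox factors and 0.33 for the Hox genes, beside 0.09 for all windows with signal. With ratios centred on GC, 0 windows passed in 5 of the 6 lists with at least 4 members, and 1 passed among the Sox, Fox and related factors. So few of all windows passed after this centring that these counts cannot tell the lists from windows at large.

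**Figure D5:**
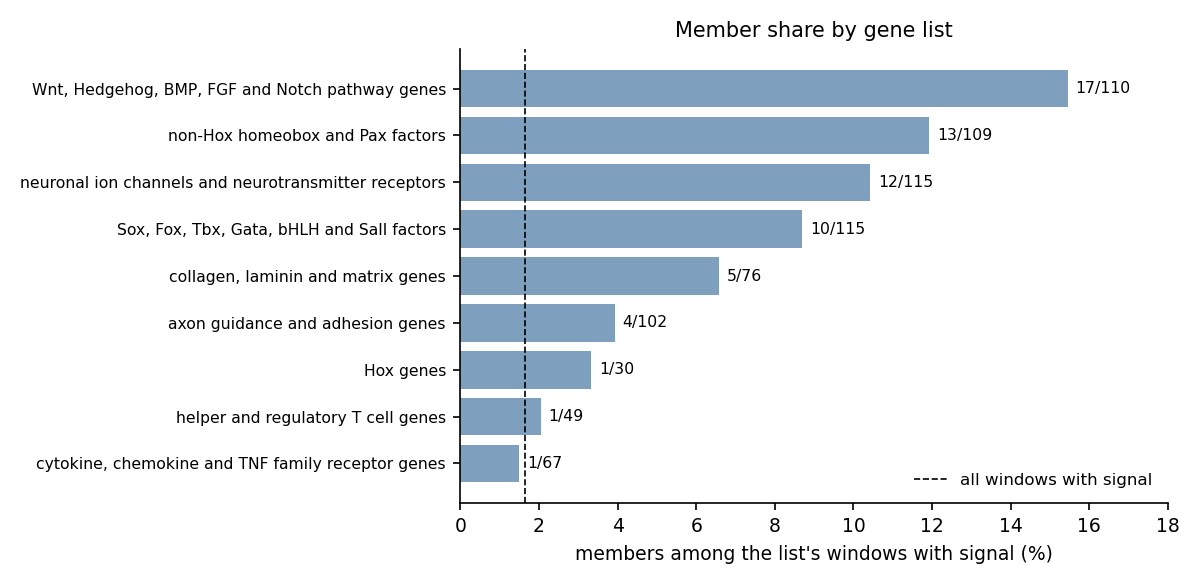
Share of each gene list's windows with signal that are members, for the 9 lists with at least 1 member, with members and windows given beside each bar; the dashed line is the 1.64% of all windows with signal. The pathway genes have 17 of 110 and the homeobox factors 13 of 109. The helper T cell and cytokine receptor lists lie near the line with 1 member each.

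Ligands of the pathway list came first. Bmp7, a bone morphogenetic protein gene, was at 30.4 in WT, 50.3 with Ezh1 deleted, 31.9 with Ezh2 deleted and 36.8 with both deleted. Inhbb, which encodes the beta B chain of inhibins and activins, was at 31.6, 51.7, 31.7 and 44.0. Wnt4, whose upstream sequence is shown above, was at 36.8, 59.4, 37.7 and 49.9. WT and the Ezh2 KO were nearly level in these 3 windows, and the double KO was intermediate. Wnt9a was at 43.0, 68.7, 41.1 and 54.8, and Fgf8, a growth factor gene of limb and brain patterning, at 55.2, 87.2, 62.5 and 71.9. Hes2, a transcriptional repressor gene of the Hes family, was at 46.3, 74.3, 52.8 and 65.6. The other 11 were Wnt7a, Gdf1, Wnt3, Wnt10b, Wnt5a, Gdf6 and Wnt2b, which encode ligands, Fgf11, of an intracellular branch of the FGF family, Fgfr3 and Fzd8, which encode receptors, and Dll4, which encodes a Notch ligand.

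Among homeobox factors, Tlx3, which specifies sensory neurons, was at 42.3, 72.3, 42.5 and 63.7 in the same order of libraries. Nkx6-2 of the developing neural tube was at 39.6, 67.5, 40.9 and 57.0, and Irx3 at 42.4, 70.2, 47.7 and 61.6. Gbx2, a factor of the hindbrain, was at 26.8, 43.5, 24.3 and 36.6. Pax7, a factor of muscle stem cells, was at 50.2, 80.2, 50.4 and 66.5, and Uncx at 33.7, 53.9, 38.2 and 51.0. The Ezh1 KO was the highest library in all 6 windows, and Uncx came nearest to equal levels in the Ezh1 KO and the double KO. Hoxb7 was the only Hox member, at 44.9, 72.6, 56.4 and 64.5, and here the Ezh2 KO was above WT as well.

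Other lineage factors included members at low and high levels. Myog, the muscle differentiation factor myogenin, was lower in level, at 10.53, 18.2, 12.8 and 15.3. Foxf1a, a factor of visceral mesoderm, was at 43.7, 71.9, 44.8 and 64.1. Tcfap2c (AP-2 gamma) was at 44.1, 70.0, 40.03 and 60.4, and Tbx1, a factor of pharyngeal development, at 46.8, 74.2, 49.4 and 69.7. Each was highest in the Ezh1 KO and next in the double KO.

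The neuronal list held Kcnj4, an inward rectifier potassium channel gene, at 54.2, 91.9, 60.9 and 76.8, and the kainate receptor gene Grik3 at 36.7, 61.6, 32.7 and 51.2. Cacna1h, a T-type calcium channel gene whose window overlaps that of Lmf1, was at 36.1, 59.4, 33.4 and 49.2. The receptor genes Grm4 (glutamate), Htr1d (serotonin) and Adra2c (adrenaline) had Ezh1 KO ratios of 0.66, 0.64 and 0.64. The axon guidance members were Sema6b (0.80), Lrrc4b (0.76), Ephb4 (0.71) and Ephb1 (0.68). Beside Col11a2, the matrix members were Bcan (0.71), Lama5 (0.67), Col7a1 (0.62) and Col6a1 (0.60). All these are log2 ratios of Ezh1 KO to WT.

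The helper T cell and cytokine receptor lists held 1 member each, too few to tell their shares from the 1.64% of all windows with signal. Of 49 helper and regulatory T cell genes 1 (2.04%) was a member, Il13, the type 2 cytokine gene, at 18.6 in WT, 28.5 with Ezh1 deleted, 18.3 with Ezh2 deleted and 25.9 with both deleted. Its RNA in WT was 0.064. Of 67 cytokine, chemokine and TNF family receptor genes 1 (1.49%) was a member, Ltbr, the lymphotoxin beta receptor gene that lymphoid stroma is known for, at 28.8, 49.1, 27.8 and 37.0. The 10 lists with 0 members included T cell receptor and identity genes (29 windows with signal), naive T cell genes (22), interferon-stimulated genes (30), CDK inhibitors (8) and PRC2 and PRC1 subunits (30). With so few windows in each, a share near the 1.64% of all windows could not be seen in these lists.

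The members were nearly silent in RNA, which the rule did not use. All 295 had a row in the RNA files, and their median level in WT was 0.0127 (mean over exons of the peak of coverage per M reads, not divided by gene length) beside 0.147 over windows with signal and 0.0100 over marked windows that were no members, which were as silent. At 1 or more in WT were 8 members (2.71%), against 26.4% of windows with signal, 2.01% of marked windows that were no members and 26.9% of the 52 windows that passed in both the Ezh1 KO and the double KO. These 8 were the members that entered the comparison with each mutant. At least 1.5-fold, 0 of the 8 differed in the Ezh1 KO, where 0.596% of all genes tested were higher and 2.73% lower. In the Ezh2 KO 0 of 8 differed (3.39% higher and 2.81% lower among all genes), and in the double KO 0 of 8 (2.65% and 2.33%). With 8 genes, a share near these background values could not be seen.

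Of the 8, Psme1, which encodes a subunit of the proteasome activator, had RNA of 19.2 in WT, 15.7 with Ezh1 deleted, 18.9 with Ezh2 deleted and 17.1 with both deleted. Its H3K27me3 was low, at 5.62, 8.94, 7.32 and 8.03. The septin gene Sept9 had RNA of 7.30, 6.89, 7.33 and 6.59 in the same order, with H3K27me3 of 28.6, 46.2, 24.4 and 36.3. Sept9 thus had a moderate H3K27me3 level in its window and RNA in every library. A mean over exons does not show whether the RNA began at the start in that window. Ctsd RNA was 6.53, 5.23, 5.94 and 5.86, and that of Tagln2, an actin-binding protein gene, 4.52, 4.30, 5.85 and 4.56. Ruvbl2, an ATPase of chromatin complexes, and Sap25, a Sin3 corepressor component, had WT RNA of 1.84 and 1.66. Otud1, a deubiquitinase gene, varied most, with RNA of 1.40, 1.40, 1.06 and 1.95. Slc26a10 was the only one of the 8 that was marked in WT, with RNA of 1.37, 1.34, 1.22 and 1.41. Below 1 in WT, the next were the kinase genes Mapk11, at 0.839, and Cerk, at 0.579.

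The 52 windows that passed in both the Ezh1 KO and the double KO adjoin the members. Their median levels were 16.3 in WT, 28.6 with Ezh1 deleted, 22.6 with Ezh2 deleted and 29.6 with both deleted, lower than those of the members. In the Ezh2 KO 51 of 52 were above WT, with a median log2 ratio of 0.28 against 0.04 for the members. Over all windows tested, 48.5% were above WT in the Ezh2 KO. The 52 were chosen as high over the same WT library, so this count is not independent of their choice. Their GC content, 55.2%, was like that of the members (55.4%). By position, members made up from 0.415% of windows with signal on chromosome 13 to 2.71% on chromosome 15. The median GC content of windows was 44.8% on chromosome 13 and 49.0% on chromosome 15. Within 1 Mb of Ezh1 0 of 79 windows were members, and within 5 Mb 7 of 281 (2.49%), beside 2% over chromosome 11. Counts this small cannot be told from that share.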

How the data were processed

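H3K27me3 ChIP-seq and RNA-seq values were used as deposited, 1 library for each genotype in each assay. Per the labels' protocols, reads were aligned to mm9 with Bowtie 0.12.7 and kept if placed at 1 location with at most 2 errors, which limits reads in near-identical genes. Also named in the submitters' processing notes are bcl2fastq, Cufflinks and Cuffdiff. For ChIP, the deposited signal is coverage: the area and highest bin of a window around each start. From the values, this is coverage per M reads in 25 bp bins of 6 kb, with reads extended to 151 bp. The deposited RNA signal is the mean and median over exons of the peak of coverage. The RNA files also hold another deposited number, that of exons. Input subtraction is not given in the sources used here.

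Log2 ratios used a pseudocount of 1 (ChIP) or 0.1 (RNA) and a minimum of 1 in the higher library, with 1.5-fold as the size counted. Read equivalents, area divided by the area of 1 read, gave the counting intervals; the median member had 415 in WT. PCR reads are not independent molecules. GC content, CpG and sequences came from the mm9 genome (NCBIM37) and GENCODE M1. The rule was tested on data simulated from WT, with counting error only and some windows raised 2-fold. No member reached 2-fold, and the simulation held no GC trend, so it does not check the members found here. Scripts used Python 3.11.15, pandas 2.3.3, NumPy 2.4.6 and SciPy 1.17.1.

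Members, gene lists and comparisons were chosen with earlier results of these data known. Genes named are Ezh1 and Ezh2, the members with the 10 largest Ezh1 KO ratios, those nearest the thresholds, the 5 highest and 5 lowest Ezh2 KO ratios, the 5 highest WT levels, the 10 highest WT RNA levels and up to 6 members per list; 1 gene and 1 sequence that these rules call for are not reported here. Nr2f6, Gpihbp1, the windows beside the double KO band, the remaining pathway members and Lmf1 were chosen after their values were seen. Alternatives were other scalings, pseudocounts, minimums, thresholds, the highest bin, RNA medians over exons and centring on GC.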

Additional observations from a re-analysis of the deposited data

Results flagged for a closer look

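At 17 of the 295 members the 2 readings of Ezh1 deletion went opposite ways: the Ezh1 KO was above WT, as the rule requires, and the double KO was below the Ezh2 KO. With 1 library per genotype the difference was not tested. Over all windows tested, the double KO was above the Ezh2 KO at 58.1%. No counting interval was made for the ratio of double KO to Ezh2 KO, so its smallest values cannot be told from counting error. All 17 were unmarked in WT. Nr2f6 had a log2 ratio of double KO to Ezh2 KO of -0.31 beside 0.81 for Ezh1 KO to WT. The same 2 ratios were -0.24 and 0.59 at Sars2, -0.22 and 0.62 at 4933413G19Rik, and -0.22 and 0.79 at Pyroxd2. At ENSMUSG00000070917, of a near-identical family and uncertain, they were -0.22 and 0.82. In the others the ratio of double KO to Ezh2 KO was -0.19 at Ppard, -0.16 at Renbp, -0.15 at Cerk, -0.10 at 8430427H17Rik, -0.080 at Ruvbl2, -0.068 at Ctsd, -0.054 at Ifnz, -0.049 at Nr2c2ap, -0.047 at Qrfp, -0.045 at Arid3a, -0.023 at Mex3a and -0.017 at Pxdn. Ifnz is of the same uncertain family.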

How the results depend on the processing

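The number of members depended on nearly every choice. From 295 it went to 73 with scaling by the median of ratios, 83 with a trimmed mean of log ratios, 512 with background windows set equal and 2 with windows marked in WT set equal, the scaling that divides the Ezh1 KO by 1.25. It was 56 with a pseudocount of 10, 0 at a 2-fold threshold, 88 with a band of 0.3, 835 with the highest bin (76 of them shared with the 295; pseudocount and minimum rescaled), and, chosen after seeing the data, 18 with centring on GC and 65 with centring on GC and level. It was 282 to 372 under the other alternatives. The members above WT in the Ezh2 KO numbered 86 with background windows set equal, where the median ratio turned to -0.088. The median of double KO over Ezh2 KO fell to 0.082 with marked windows set equal and 0.16 with centring on GC, and that of double KO over WT to 0.20 with centring on GC. By the highest bin 5.08% of members were marked. Without an RNA minimum 4 members differed at least 1.5-fold in RNA with Ezh1 deleted, 9 with Ezh2 deleted and 3 with both, and with a minimum of 0.5 the counts were 2 with Ezh2 deleted and 1 with both. The members' median RNA ratios, between -0.10 and -0.07 as reported, changed sign to 0.024 (Ezh1 KO) and 0.028 (double KO) with the median of ratios, to 0.0068 with exon medians and 0.0050 without a minimum (Ezh2 KO), and to 0.028 with a minimum of 0.5 (double KO). The cause was not tested for any of these. For 72 members, those with the largest ratios or in a gene list, the Ezh1 KO ratio ranged from 0.15 to 1.40 over 7 alternatives; the rule chose them on this ratio, so its sign shows no stability. Scaling and pseudocount cannot move the share marked in WT, so those were not run. No replicate could be left out. No paired analysis was possible because each genotype has 1 library per assay.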

Other observations

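The 7 members that still passed after both ratios were centred on windows of like GC were Rhox2a, Tmem174, Ctf2, Nlrp4e, Renbp, Pyroxd2 and Sncg, chosen here after their values were seen. Their GC content was 42.1 to 55.1%, and their WT levels were 1.06 to 15.9, below the members' median. Rhox2a and Nlrp4e belong to families of near-identical genes and remain uncertain. Tmem174 was at 15.9 in WT, 27.5 with Ezh1 deleted, 19.4 with Ezh2 deleted and 23.2 with both deleted. Ctf2, a cardiotrophin-like cytokine gene, was at 15.8, 27.8, 19.5 and 23.6. In these windows WT was the lowest library.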
